A study of Mus musculus with 18 samples.

Results

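The comparison described here sets wild-type mouse thymocytes assayed after an enrichment for miR-181 against the same cell type assayed by Argonaute 2 (Ago2) immunoprecipitation (IP) alone. It uses 6 of the 18 samples of the series, 3 Ago2 IP libraries and 3 miR-181-enriched libraries, chosen by their titles. Both groups were total thymocytes of C57BL/6 mice aged 6 weeks, crosslinked with UV light of 254 nm, and differed only in the step after the Ago2 IP. Values from 6 knockout libraries, 3 Ago2 IP and 3 enriched, are set beside some results. These came from B6.Mirc14tm1.1Ankr mice, which lack the Mir181a-1 and Mir181b-1 genes and keep the other miR-181 loci, also at 6 weeks. Input samples, 6 in all, were left aside. The labels do not say whether the libraries came from separate animals, so p-values measure the spread between these samples, which may be technical.

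In miR-eCLIP, a microRNA (miRNA) bound by Ago2 is joined end to end with its RNA partner, and the chimeric read names the miRNA and places the partner in the genome. Argonaute proteins carry miRNAs to messenger RNAs, mostly through pairing of the seed near the 5′ end of the miRNA, and the bound messages are repressed. The miR-181 family is abundant in immature thymocytes, where it is known for setting the sensitivity of T cell receptor signalling by repressing phosphatases. The enrichment asks which miR-181 partners can be seen beyond those of an Ago2 IP, in which miR-181 competes for reads with the other miRNAs.

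The family members share the seed, bases 2 to 8 counted from the 5′ end, shown in capitals, which is why their reads were summed per gene. The mature sequences are those of RefSeq, from its GRCm38.p6 annotation.
miR-181a-5p: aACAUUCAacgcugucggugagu
miR-181b-5p: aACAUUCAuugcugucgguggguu
miR-181c-5p: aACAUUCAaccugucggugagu
miR-181d-5p: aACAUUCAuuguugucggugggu
Against miR-181a-5p, miR-181d-5p has the substitutions A9U, C10U, C12U and A21G, positions being counted from the 5′ end. The seed is the same in all 4.

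The Mir181a-1 precursor is shown because reads at the miR-181 hairpins are no target reads and had to be set apart. It lies at chr1:137966455-137966541 on the plus strand of GRCm38, and its 5p arm, the source of miR-181a-5p, is in capitals.
Mir181a-1: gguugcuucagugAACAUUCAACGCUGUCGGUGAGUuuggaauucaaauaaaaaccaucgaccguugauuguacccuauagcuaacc
Of the reads placed there, 99.7% lay at 3 positions between 137966486 and 137966489, within the last bases of the 5p arm, which runs from 137966468 to 137966490.

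The enriched libraries were deeper and almost wholly miR-181. The Ago2 IP libraries 1, 2 and 3 held 117849, 69074 and 43983 chimeric reads, of which 35510, 21354 and 14201 named miR-181a, b, c or d-5p. After enrichment they held 293149, 253502 and 194628 reads, of which 289555, 250900 and 193046 named miR-181. Reads at the 6 Mir181 hairpins were 2.83% ± 0.686 of miR-181 reads in the Ago2 IP and 12.8% ± 0.899 after enrichment (SD, n = 3 each). With those set aside, 34715, 20782 and 13692 target reads were left in the Ago2 IP and 249540, 220312 and 169216 after enrichment, a difference of 3.29 on the log2 scale, or 9.80-fold. Neither the hairpin shares nor the target reads of the groups overlapped (exact two-sided permutation test, p = 0.1 for each, the smallest that 3 against 3 libraries allow). Values below are target reads per 1000000 target reads of the library (rpm), which takes out this difference in depth.

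Thymocyte markers held far more chimeric reads than markers of other cell types. Such reads need a miRNA bound to the marker, so they do not measure expression and cannot settle which cells were present. All 10 thymocyte markers had reads of any miRNA in both groups, summing to 6980.0 to 8485 reads per 1000000 chimeric reads in the Ago2 IP libraries and 8113 to 9923 after enrichment. In the Ago2 IP the 4 B cell markers summed to at most 33.9, with Ms4a1 at 0, and the 4 myeloid markers to at most 25.5, with Cd68 at 0. After enrichment these sums were at most 5.14 for B cell and 25.7 for myeloid markers. The 4 erythroid markers summed to 42.4 to 101.3 in the Ago2 IP and 10.2 to 31.6 after enrichment. All 5 thymic epithelial markers were at 0 in the Ago2 IP and summed to at most 3.41 after enrichment.

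Within the family, the enrichment held relatively more miR-181a and less of the others. Target reads were 76.1% ± 0.498 miR-181a-5p in the Ago2 IP and 80.9% ± 1.93 after enrichment. The share of miR-181b-5p was 22.2% ± 0.430 against 17.97% ± 1.90, that of miR-181c-5p 0.818% ± 0.0833 against 0.713% ± 0.00443, and that of miR-181d-5p 0.836% ± 0.0136 against 0.444% ± 0.0189 (SD, n = 3). Groups overlapped for none of the 4 members, and each exact permutation p was 0.1, also when adjusted over 4 tests. When reads of 1 miRNA that share position and strand were counted once in each library, the direction for miR-181c-5p turned.

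Such repeats, reads identical in miRNA, position and strand, were more frequent after enrichment. They made up 3.82% ± 1.30 of target reads in the Ago2 IP and 20.4% ± 3.11 in the enriched libraries (exact permutation p = 0.1, no overlap). Repeats can be copies of a molecule or separate molecules cut at the same place, and the files do not tell these apart. Many results below are therefore also given with repeats counted once. For each miRNA, that count cannot exceed the number of positions in a site. Deeper libraries come nearer to this limit. Counting once therefore lowers narrow sites relative to broad ones more after enrichment, even where repeats are separate molecules. The difference in hairpin share was -0.0437 percentage points when counted in that way, so its direction turned.

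The enrichment read miR-181 on many more genes, mostly genes that the Ago2 IP had touched too thinly to recur. A gene was called reproducible where each of the 3 libraries of a group held at least 3 miR-181 target reads in its span. This held for 5536 genes after enrichment and for 1053 in the Ago2 IP, and 1052 were reproducible in both. The enriched set thus held 99.9% of the Ago2 IP set, which was 19.0% of the enriched set. Of the 4484 genes reproducible after enrichment alone, 4348 were protein-coding. At least 1 Ago2 IP read was found in 4130 of them, and 354 had none. Those 4484 genes held 34.4% ± 0.107 of enriched target reads and 31.8% ± 3.31 of Ago2 IP target reads (SD, n = 3).

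The gain went with the number of miR-181 target reads, which is the depth meant here. MiR-181 made up 30.1%, 30.9% and 32.3% of chimeric reads in Ago2 IP libraries 1, 2 and 3. After enrichment it made up 98.8%, 99.0% and 99.2%. Taking equal numbers of target reads therefore also takes out this effect of the enrichment. When every library was taken at 13692 target reads, the depth of the smallest, 643 genes were expected to be reproducible after enrichment and 703 in the Ago2 IP. Of these, 453 were expected in both, 189.7 after enrichment alone and 249.7 in the Ago2 IP alone. Without repeats the expected numbers were 688 and 694. At equal numbers of target reads the enriched libraries therefore did not hold more reproducible genes than the Ago2 IP libraries. Numbers at equal chimeric reads were not calculated.

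**Figure D1:**
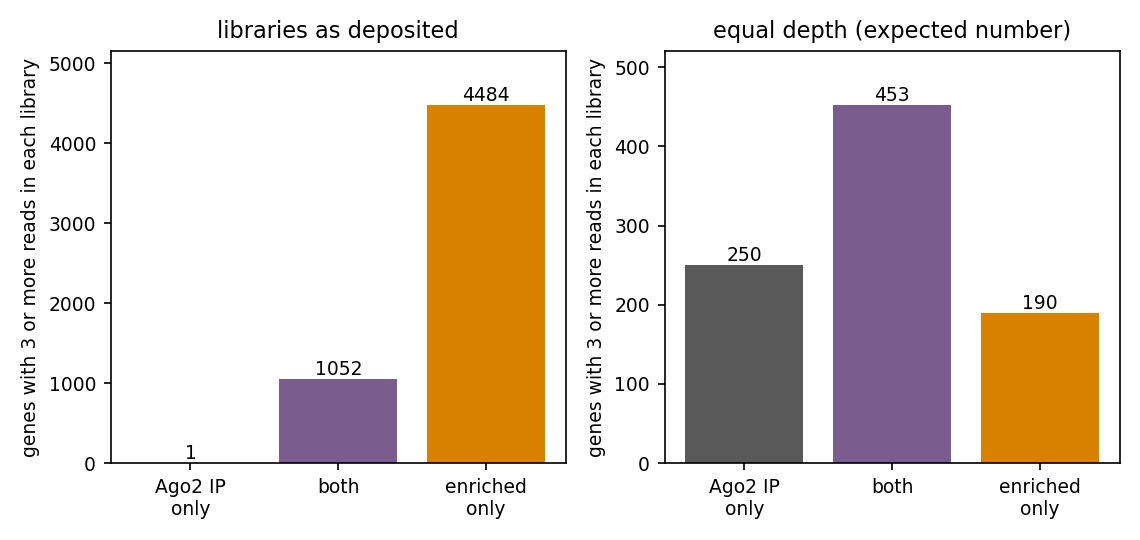
Number of genes with at least 3 miR-181 target reads in each of 3 libraries, in the Ago2 IP alone, in both groups and after enrichment alone. At full depth (left), 4484 genes were reproducible after enrichment alone; at 13692 reads per library (right, expected numbers, another scale), 189.7 were.

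Mettl16, which encodes an RNA methyltransferase, was the single gene reproducible in the Ago2 IP and not after enrichment. It had 11, 5 and 6 reads in the Ago2 IP libraries and 13, 12 and 2 reads in the enriched ones. Scaled to depth these were 317, 241 and 438 rpm against 52.1, 54.5 and 11.8 rpm, with no overlap of the groups. The difference was -2.89 in log2 units (SE 0.51, edgeR adjusted p = 8.9e-05), and it was -2.61 with repeats counted once. Its reads lay at 20 positions in the Ago2 IP and at 27 after enrichment, so no site dominated.

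Genes read after enrichment and not at all in the Ago2 IP were few at an informative level. Since 3 reads over the 3 Ago2 IP libraries correspond to 43.4 rpm, only 61 of the 354 such genes exceeded that floor, 13 of them by more than 2-fold. The highest were Prr16, a proline-rich protein, with 116, 75 and 50 enriched reads, at least 8.70-fold above the floor, and Mcmdc2, with 68, 58 and 61 reads, at least 6.75-fold above it. Abl1, which encodes a tyrosine kinase, had 45, 40 and 23 reads, at least 3.90-fold above the floor. Knockout enriched libraries held reads in 163 of the 354 genes, but none in Prr16 or Mcmdc2. These libraries were shallower, with 26673 target reads in all against 639068 in the wild-type enriched libraries.

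What stood behind these counts differed from gene to gene. In Prr16, 99.2% of the enriched reads lay at 1 position, and none named miR-181b-5p. In Mcmdc2, 99.5% lay in a stretch of 33 nt, chr1:9942469-9942501, which overlaps the small nucleolar RNA (snoRNA) Snord87 and its host Snhg6 within the Mcmdc2 span. All reads counted for Gm39429, a long non-coding RNA, lay on the opposite strand, in a cluster of 33 nt that reaches into Mir6236. Any reads inside that hairpin were assigned to the hairpin and are not part of the Gm39429 count. Of 92 reads in Ptprz1, a receptor phosphatase, all lay at 1 position, and 98.8% of 83 reads in Cacna1b, a calcium channel subunit, did so on the strand opposite to the gene. By contrast, 69 reads in Ubl3 lay at 66 positions, with 2.90% repeats, and 62 reads in Parp3 at 45 positions, with 8.06% repeats. Ubl3 had 17, 29 and 23 enriched reads, at least 2.49-fold above the floor, and Parp3 21, 25 and 16, at least 2.24-fold above it.

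Gene ranks were shared in large part. Across the 2172 genes with enough reads for a test, Spearman's rho between the mean rpm of the groups was 0.749, a description over genes, which are not independent replicates and share the libraries. Between 2 single libraries, rho was 0.597 to 0.681 within the Ago2 IP, 0.879 to 0.902 within the enriched group and 0.577 to 0.710 between groups. The range between groups overlapped that among the shallower Ago2 IP libraries and lay below that among the enriched ones. Without repeats, rho over the means was 0.802 (2116 genes).

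The top of the lists differed more than the body. Of the 10 highest genes of each group 4 were shared, of the 20 highest 9, of the 50 highest 36, of the 100 highest 79 and of the 500 highest 405. Counted once, the shared genes were 7 of 10, 18 of 20 and 80 of 100. For single libraries, the 100 highest shared 77 to 80 genes within the Ago2 IP, 88 to 94 within the enriched group and 69 to 75 between groups. The lowest enriched rank among the 100 highest Ago2 IP genes was 248, for Zfp280d, and the lowest Ago2 IP rank among the 100 highest enriched genes was 2287, for Nop58.

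The 4 genes among the highest 10 of both groups were Cd4, Btg2, Themis and Mbnl1. Cd4, the coreceptor of helper-lineage cells, had 6337, 5052 and 3359.6 rpm in the Ago2 IP libraries and 6127, 4829.5 and 4651 after enrichment, a log2 difference of 0.04 (SE 0.17). Btg2, an antiproliferative factor that recruits deadenylases, had 4580.2, 6015 and 5112 rpm against 4845, 4230.4 and 4716, a difference of -0.18 (SE 0.15). Themis, needed for positive selection of thymocytes, had 5416, 4908 and 4382 rpm against 4184, 4339 and 4692, a difference of -0.17 (SE 0.15). These 3 overlapped between groups and did not pass the test. Mbnl1, a splicing regulator, had 3457, 4427 and 3579 rpm against 4885, 5361 and 5354, which do not overlap, and its difference of 0.45 (SE 0.16) missed the threshold (edgeR adjusted p = 0.0795) and was -0.24 counted once.

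Counting repeats once gave a difference of -0.62 for Cd4 (edgeR adjusted p = 0.00167) and of -1.05 for Btg2 (edgeR adjusted p = 2.68e-08). Repeats were 36.7% of Cd4 reads in the Ago2 IP and 65.5% after enrichment, and 32.5% and 69.5% of Btg2 reads. Enriched Cd4 reads lay at 573 positions and enriched Btg2 reads at 479. Neither the part of repeats in these differences nor the part of depth in the values counted once was tested.

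The other genes among the highest 10 of the Ago2 IP were Satb1, Ptprc, Tle5, Arhgap15, Glcci1 and Bcl11b. Satb1, a chromatin organiser of thymocytes and the highest gene there, had 4868, 5678 and 5769.8 rpm against 3310.1, 3963 and 3871 after enrichment and fell by 0.54 in log2 units (SE 0.15, edgeR adjusted p = 0.0207). Ptprc, which encodes the CD45 phosphatase, had 4609, 3705 and 4090.0 rpm against 2577, 2242 and 2677 and fell by 0.74 (SE 0.16, edgeR adjusted p = 0.00138). Arhgap15, a GTPase-activating protein of Rac, had 2881, 2743 and 4455 rpm against 2128, 1911 and 2517 and fell by 0.58 (edgeR adjusted p = 0.0347). None of these 3 overlapped between groups, which held in the lower direction for 14.6% of all tested genes. They were picked for their high Ago2 IP values, a choice that favours a fall after enrichment. Ptprc lost the call when miR-181a-5p alone was counted (-0.51), and Satb1 and Arhgap15 lost the call with TMM factors, with DESeq2 and with repeats counted once, and without Ago2 IP library 3. Satb1 lost it also without Ago2 IP library 2, and Arhgap15 without enriched libraries 1 or 2.

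Bcl11b, a transcription factor of T-lineage commitment, had 3486, 3031 and 2921 rpm in the Ago2 IP against 3322, 2991 and 3168, a difference of -0.01 (SE 0.16). Glcci1, a glucocorticoid-induced gene, ranged from 2247 to 4674 rpm in the Ago2 IP and from 2052 to 4001 after enrichment (difference -0.08, SE 0.20). Neither differed beyond the spread between libraries.

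The test for single genes took the 2172 genes that passed a filter on low counts. Genes with few reads in a group pass it only when they are high in the other group. Prr16 passed in that way through the enriched libraries and Mettl16 through the Ago2 IP. The genes tested and called therefore do not stand for all genes with few reads. By edgeR's quasi-likelihood test with Benjamini-Hochberg adjustment, 131 genes differed at an adjusted p of at most 0.05, 6.03% of those tested. After enrichment 83 were higher (3.82%) and 48 lower (2.21%), and 389 had an unadjusted p under 0.05. Groups did not overlap for 25.2% of tested genes, 10.6% higher and 14.6% lower. The median difference of all tested genes was -0.14 on the log2 scale, so a typical gene sat slightly below parity.

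The split depended on the scaling and on repeats. TMM factors gave 99 higher and 25 lower, DESeq2 62 and 18, and repeats counted once 9 and 26. Scaled to all chimeric reads of a library, the median moved up by 1.55 on the log2 scale and 2022 genes were higher and 2 lower. Directions below are relative to the miR-181 target reads of a library. Without Ago2 IP libraries 1, 2 and 3 in turn the test called 64 of 3605, 73 of 3617 and 92 of 3456 genes. Without enriched libraries 1, 2 and 3 in turn it called 104 of 908, 96 of 901 and 152 of 898. The filter passed different genes in these fits, so the counts do not show the effect of a library alone.

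**Figure D2:**
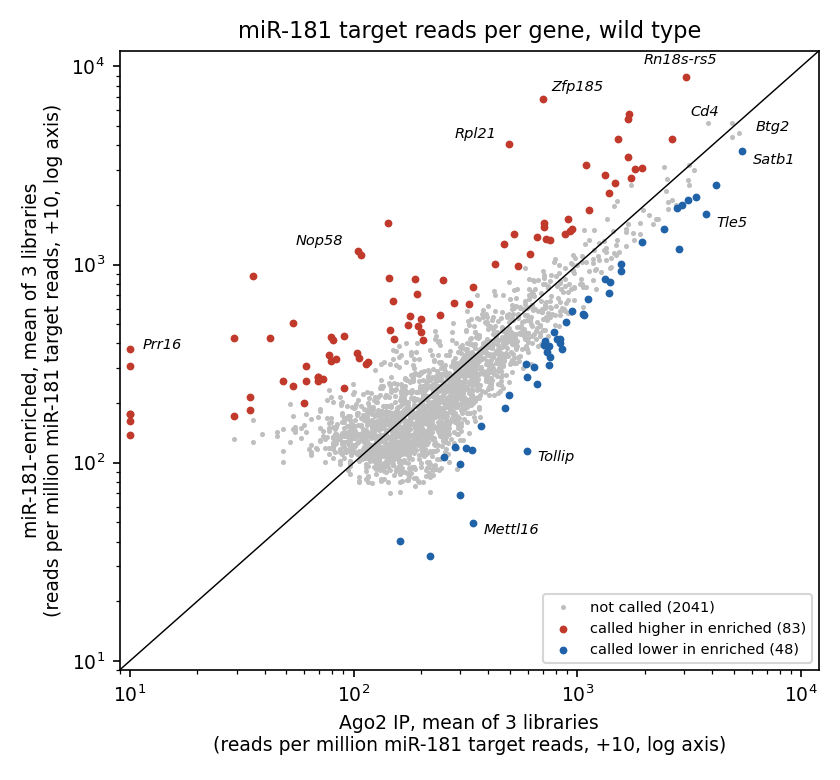
Mean miR-181 target rpm of each of 2172 tested genes in the Ago2 IP (x axis) and after enrichment (y axis), 3 libraries each, both on log axes after adding 10, with the line of equality. The 83 genes called higher (red) lie at all levels, up to Rn18s-rs5, and the 48 called lower (blue) include Satb1 and Tle5.

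Of the 10 genes of smallest p called higher, the first was Rpl21, a protein of the large ribosomal subunit. It had 288, 577 and 584 rpm in the Ago2 IP libraries and 3723, 4053 and 4308 after enrichment. Every enriched library lay above every Ago2 IP library, and the log2 difference was 3.19 (SE 0.23, edgeR adjusted p = 2.27e-14). Counted once, the difference turned to -0.63 and was not called (edgeR adjusted p = 0.626), with reads at 8 positions in the Ago2 IP and 20 after enrichment and 97.1% repeats among the latter. Of its enriched reads, 99.6% lay at chr5:146834830-146834853 on the plus strand, a stretch of 24 nt that overlaps the snoRNA gene LOC115490268 (146834834 to 146834904) inside the Rpl21 span.

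Rbmx, an RNA-binding splicing factor, had 202, 48.1 and 146 rpm, from only 7, 1 and 2 reads, against 1503, 1847 and 1489, a log2 difference of 3.48 (SE 0.32, edgeR adjusted p = 2.62e-11). It was 1.21 counted once and lost the call (edgeR adjusted p = 0.174). Its main site, chrX:57391407-57391490 on the minus strand, held 97.5% of the enriched reads and overlaps Snord61 (57391448 to 57391509). Nop58, a core protein of snoRNA particles, had 115, 96.2 and 73.0 rpm, from only 4, 2 and 1 reads, against 1170.2, 1080.3 and 1235 (log2 difference 3.51, SE 0.35, edgeR adjusted p = 2.25e-10). Counted once, Nop58 had a difference of 1.35 and no call (edgeR adjusted p = 0.167). Its main site, chr1:59704256-59704284, held 90.9% of enriched reads and overlaps the snoRNA gene Gm26287. Hspa8, a constitutive chaperone, had 1584, 1251 and 1679.8 rpm against 3863, 4616 and 4397 (log2 difference 1.52, edgeR adjusted p = 1.52e-08), which turned to -0.44 with no call when counted once (edgeR adjusted p = 0.511). Its site at chr9:40804739-40804772, with 85.5% of the enriched reads, overlaps Snord14e.

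These 4 host genes belong to a larger set. More than 50% of the enriched reads lay in snoRNA spans widened by 10 nt in 12 of the 83 genes called higher, in 0 of the 48 called lower and in 2 of the 2041 not called. Besides Rpl21, Rbmx, Nop58 and Hspa8 these included Mcmdc2, Taf1d, Snhg1, Rpl13a, Rps12, Nop56 and Gas5, and, not called, Rpl3 and Eif4a2. SnoRNAs guide chemical modification of ribosomal RNA and are mostly cut out of introns of such host genes. This set was found after its values were seen, from sites inside the same contrast, and is a description with no test. Members with few Ago2 IP reads, such as Mcmdc2 with none, passed the filter only through the enriched libraries.

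Over all genes, snoRNA spans held 0.228%, 0.221% and 0.292% of target reads in Ago2 IP libraries 1, 2 and 3 and 1.46%, 1.61% and 1.55% in enriched libraries 1, 2 and 3. All enriched libraries lay above all Ago2 IP libraries. Counted once, the group means were 0.154% ± 0.0299 and 0.308% ± 0.0100 (SD, n = 3). In the knockout, whose libraries took no part in the calls, the means were 0.248% ± 0.0266 in the Ago2 IP, from 6 reads in all, and 0.520% ± 0.101 after enrichment, from 147 reads. With reads at snoRNA spans left out, 118 of 2160 genes were called, and Hspa8 was left with a difference of 0.15 (edgeR adjusted p = 0.874).

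The highest enriched gene was a ribosomal RNA copy. Rn18s-rs5, a ribosomal RNA pseudogene on chromosome 17, had 2650.2, 3753 and 2702 rpm in the Ago2 IP and 7782, 10526 and 8344 after enrichment (log2 difference 1.55, SE 0.17, edgeR adjusted p = 1.92e-09). Counted once it was still higher, by 0.815 (edgeR adjusted p = 3.48e-05). The mitochondrial ribosomal RNA mt-Rnr1 had 317, 626 and 438 rpm against 1226, 1393 and 1158 (log2 difference 1.52, edgeR adjusted p = 2.75e-05). The other mitochondrial ribosomal RNA, mt-Rnr2, overlapped between groups and was not called (log2 difference 0.42, SE 0.28). Reads of Rn18s-rs5 and other genes with near-identical copies may be split among the copies by the mapping. Most enriched reads of Rpl21 and Hspa8 lay at snoRNA spans, and copies of those spans were not examined.

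Zfp185, a LIM-domain protein, had 461, 674 and 949 rpm against 11209, 5760.0 and 3539.8, the widest spread among enriched libraries of these genes. The groups did not overlap, and the log2 difference was 3.43 (SE 0.30, edgeR adjusted p = 9.57e-12). All its reads lay within 4 nt, chrX:72994362-72994365, and 99.5% of the enriched reads at 1 of them. Only 0.107% of the 4665 enriched reads named miR-181b-5p. The 3 knockout enriched libraries held 1 read there.

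Slc19a1, the reduced folate carrier, had 28.8, 192 and 73.0 rpm against 1491, 1058 and 786 (log2 difference 3.67, SE 0.43, edgeR adjusted p = 1.5e-08). Its Ago2 IP values came from only 1, 4 and 1 reads, and 99.9% of its enriched reads lay at chr10:77042268-77042269. In the span of Gm36876, a long non-coding RNA, 1, 1 and 0 Ago2 IP reads stood against 232, 165 and 153 enriched reads, all on the strand opposite to the gene and most of them at chr11:109011646-109011683. Its 2 Ago2 IP reads are under the floor of 3 reads, so no fold is given, and the gene was not called with repeats counted once (edgeR adjusted p = 0.0528).

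Idh3g and Smg6 had broad sites. Idh3g, a subunit of mitochondrial isocitrate dehydrogenase, had 1584, 1925 and 1534 rpm against 7814, 4993 and 4503 (log2 difference 1.78, SE 0.20, edgeR adjusted p = 2.64e-09), with reads at 321 positions. Smg6, the endonuclease of nonsense-mediated decay, had 1556, 1973 and 1461 rpm against 6095, 5161 and 5011 (log2 difference 1.70, SE 0.18, edgeR adjusted p = 5.49e-10), with reads at 443 positions. Without repeats these differences were -0.0686 for Idh3g and 0.0727 for Smg6, neither of them called. In the pooled knockout enriched libraries Idh3g held 309 reads and Smg6 295, against 9 for Rpl21, 27 for Hspa8 and 1 for Zfp185. Pooled enriched rpm in knockout and wild type were 11585 and 5965 for Idh3g, 11060 and 5486 for Smg6 and 337 and 3992 for Rpl21. They were 1012 and 4264 for Hspa8 and 37.5 and 7300 for Zfp185.

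**Figure D3:**
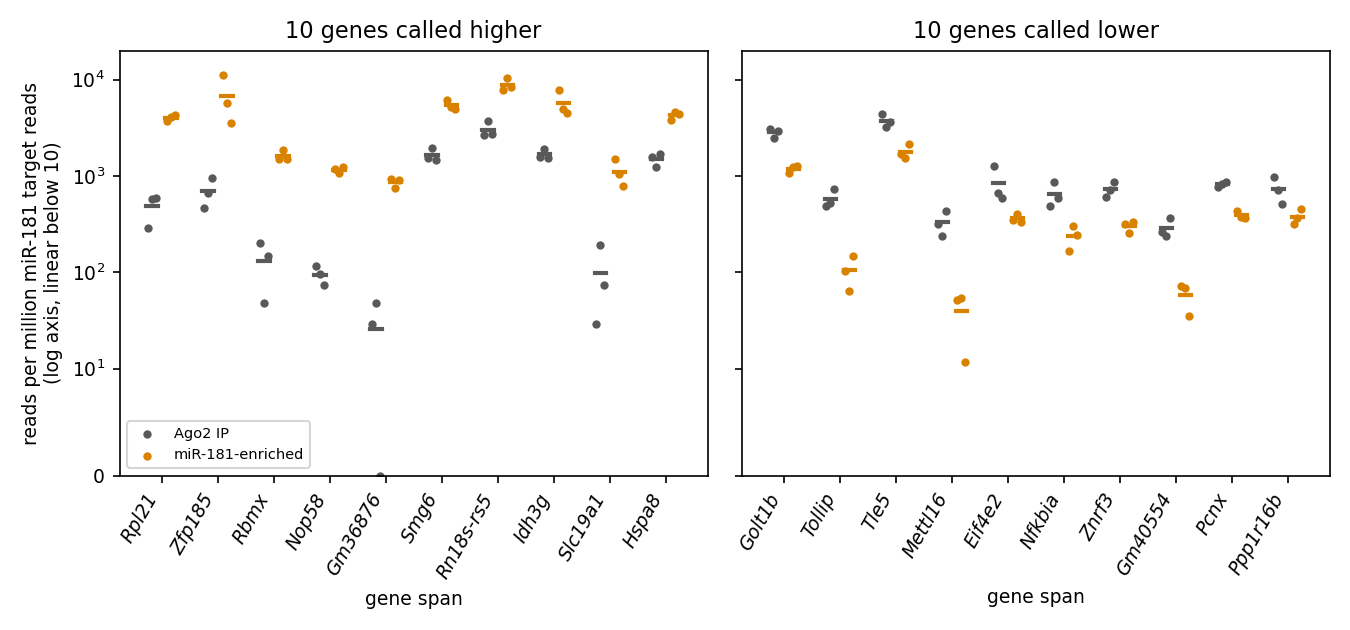
Rpm in each library (points) with the mean of 3 (bars) for the 10 genes of smallest p called higher (left) and lower (right) after enrichment, on a log axis that is linear below 10. The groups do not overlap for any of the 20 genes, which the naming rule required, and the point at 0 is the Ago2 IP library without a read in Gm36876.

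Of the 10 genes of smallest p called lower, all but 1 had reads spread over many positions. Golt1b, a Golgi transport protein, had 3111, 2502 and 2921 rpm in the Ago2 IP against 1086, 1230.1 and 1265 and fell by 1.26 in log2 units (SE 0.17, edgeR adjusted p = 2.47e-07). Tollip, an adaptor that restrains Toll-like and interleukin receptor signalling, had 489.7, 529 and 730.4 rpm against 104, 63.5 and 148 and fell by 2.42 (SE 0.36, edgeR adjusted p = 3.19e-06). Tollip reads lay mainly at chr7:141901152-141901315 on the minus strand, 94.7% of them in the Ago2 IP and 69.2% after enrichment. Tle5, a short corepressor of the Groucho family, had 4379, 3224 and 3652 rpm against 1679, 1539 and 2133 and fell by 1.095 (SE 0.17, edgeR adjusted p = 5.79e-06). Its 269 Ago2 IP reads lay at 36 positions, with 67.3% repeats, and its 1119 enriched reads at 82, with 83.1% repeats. A site of 179 nt held 97.1% of the enriched reads.

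Nfkbia, the inhibitor of NF-κB, had 489.7, 866 and 584 rpm against 168, 304 and 242 and fell by 1.40 (SE 0.31, edgeR adjusted p = 0.00199). Eif4e2, a cap-binding repressor of translation, fell by 1.35 (SE 0.25, edgeR adjusted p = 0.000182), from 842 ± 371 to 363 ± 35.8 rpm (SD, n = 3). Znrf3, a ubiquitin ligase that removes Wnt receptors, fell by 1.22 (SE 0.27), from 734 ± 136 to 301 ± 40.8 rpm. Pcnx fell by 1.05 and Ppp1r16b, a regulatory subunit of a protein phosphatase, by 1.09 (edgeR adjusted p = 0.00344 and 0.00391). Without Ago2 IP library 1 the calls of Eif4e2 (-0.81) and Ppp1r16b (-0.77) were lost, and without library 2 that of Nfkbia (-1.13). DESeq2 did not call Ppp1r16b.

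The exception was Gm40554, a long non-coding RNA, whose 19 Ago2 IP reads lay at 1 position, chr12:99027280, on the opposite strand. It had 259, 241 and 365 rpm in the Ago2 IP against 72.1, 68.1 and 35.5 and fell by 2.16 (SE 0.48, edgeR adjusted p = 0.00218). Counted once, all other 9 of the 10 lower genes of smallest p kept the direction and the call, the smallest difference being -0.91 for Eif4e2.

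The called sets differed in the shape of their sites, given here as a description with no test. Called genes with few reads in a group passed the filter only through the other group, which bears on these shapes. In genes called higher, the median share of repeats among enriched reads was 61.2% and the median share at the most frequent position 14.1%. In genes called lower these medians were 9.65% and 3.40%, and in genes not called 7.14% and 3.97%. In 16 of the 83 higher genes more than 50% of enriched reads lay at 1 position. Counted once, 61 of the 83 had enough reads for a test, 51 of them in the same direction and 9 called. Of the 48 lower genes 46 had enough, all 46 in the same direction and 18 called. Background shares with repeats counted once were 0.425% called higher and 1.23% called lower of 2116 genes. Counting once lowers narrow sites more in the deeper enriched libraries, so it bears unequally on the higher and the lower genes.

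**Figure D4:**
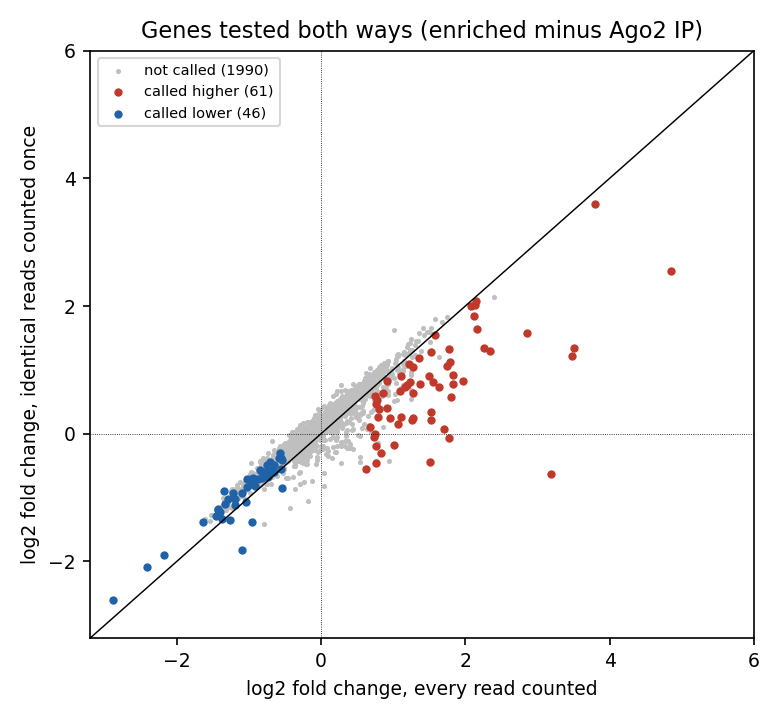
Log2 fold change of enriched over Ago2 IP for the 2097 genes tested both ways, with every read counted (x axis) and with identical reads counted once (y axis), with the line of equality. The 46 genes called lower (blue) lie near the line, and the 61 called higher (red) lie mostly below it, 10 of them under 0 on the y axis.

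The knockout libraries, which took no part in the calls, showed the same direction for the sets as wholes. The 48 lower genes together held 6.01% ± 0.268 of wild-type Ago2 IP target reads and 3.38% ± 0.136 after enrichment, and 5.38% ± 0.593 and 3.18% ± 0.347 in the knockout (SD, n = 3). The 67 higher genes without such a position held 3.82% ± 0.0420 and 9.08% ± 0.533 in wild type, and 4.91% ± 0.728 and 10.5% ± 0.356 in the knockout. The 16 with such a position held 0.187% ± 0.0622 and 1.69% ± 0.525 in wild type, and 0.158% ± 0.138, from 4 reads, and 0.394% ± 0.0591, from 100 reads, in the knockout. The wild-type values chose these sets and are a description. Groups did not overlap in the knockout for any of the 3 sets.

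Sites were compared on clusters, in which reads on a strand were joined where neighbours lay at most 20 nt apart. Of 849 clusters tested, 156 were higher after enrichment (18.4%) and 61 lower (7.18%), and the median difference was 0.22 on the log2 scale. Counted once, 26 of 615 were higher and 74 lower, with a median of -0.21, so the balance turned. By width, with no test of the difference between widths, of 37 clusters of up to 20 nt, 30 were higher and 1 lower, and their median difference was 3.11. Clusters with few Ago2 IP reads pass the filter only when they are high after enrichment, so those tested do not stand for all clusters of a width. Of 70 clusters of 21 to 50 nt, 24 were higher and 3 lower. Of 413 clusters over 100 and up to 200 nt, 51 were higher and 31 lower, with a median difference of 0.07. Of 96 clusters over 200 nt, 18 were higher and 5 lower. Counted once, 1 of the clusters of up to 20 nt could be tested, and the median was -0.69 over 25 clusters of 21 to 50 nt and -0.18 over 352 of over 100 and up to 200 nt, so the narrower clusters no longer had the higher median. Counting once itself lowers narrow clusters more in the deeper enriched libraries, so these medians cannot show what width alone does.

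**Figure D5:**
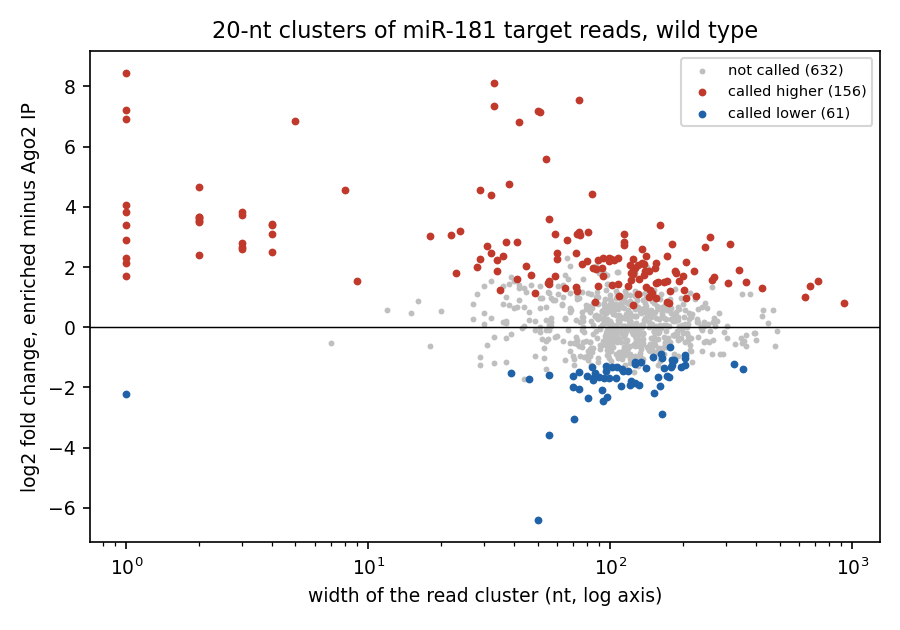
Log2 fold change of enriched over Ago2 IP (y axis) against the width of each of 849 clusters of miR-181 target reads (x axis, nt, log axis). Of the 37 clusters of up to 20 nt, 30 are called higher (red). Fold changes of clusters without Ago2 IP reads depend on the prior count of the fit, and such clusters pass the filter only through the enriched libraries.

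Where both assays gave enough reads, they mostly read the same place in a gene. Over 745 genes with at least 20 Ago2 IP reads, the cluster with most reads was the same in both groups in 478, or 64.2% (95% Wilson interval 60.7% to 67.5%, counting error only). In the 191 genes with at least 10 reads in every library, pairs of single libraries agreed on the top cluster for 56.0% to 61.3% of genes within the Ago2 IP, 80.6% to 84.3% within the enriched group and 59.7% to 65.4% between groups. Libraries of different groups thus shared a top site about as often as Ago2 IP libraries did among themselves.

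Of 12 published miR-181 targets, all had enriched reads and all but Nrarp had Ago2 IP reads, 11 were reproducible after enrichment and 6 in the Ago2 IP, and of the 9 tested 0 were called in either direction (3.82% higher and 2.21% lower over all tested genes) and 1 was called lower with repeats counted once. Their median difference was -0.42, against -0.14 for all tested genes. Cdkn1b, the p27 cell-cycle inhibitor, had the highest level of the list, with 2449, 2983 and 2775 rpm in the Ago2 IP against 1948, 2038 and 2009, a difference of -0.44 (SE 0.16, edgeR adjusted p = 0.115) that was -1.16 and called with repeats counted once (edgeR adjusted p = 4.69e-06).

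The phosphatases of the list, known as restraints of T cell receptor signalling, lay lower. Dusp5, which inactivates ERK, had 778, 674 and 438 rpm against 689, 663 and 703 (0.03, SE 0.24). Ptpn22 had 7, 8 and 2 reads in the Ago2 IP libraries and 30, 33 and 19 after enrichment (-0.94, SE 0.43, edgeR adjusted p = 0.228). Ptpn11, which encodes SHP2, and Dusp6 had too few reads for a test, with 5, 2 and 1 against 17, 21 and 11 reads for Ptpn11, and 0, 0 and 2 against 12, 8 and 4 for Dusp6. Both were reproducible after enrichment alone. Nrarp, a Notch feedback inhibitor, had 0 Ago2 IP reads and 2 enriched reads, and was the 1 member not reproducible in either group.

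Among the survival and migration genes of the list, Bcl2 had 893, 529 and 292 rpm against 589, 599 and 679.6 (-0.07, SE 0.25). Cd69 had 8, 4 and 2 reads against 36, 43 and 39, and S1pr1, the egress receptor, 7, 7 and 2 against 37, 47 and 36. Their rpm overlapped between groups, with differences of -0.12 (SE 0.42) and -0.29 (SE 0.41). Nlk (-0.76) and Tgfbr1 (-0.42) were not called either.

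Of 21 genes of T cell receptor signalling, all were reproducible after enrichment and 12 in the Ago2 IP. Of 15 tested, 0 were higher and 2 lower, Ptprc (above) and Cblb (3.82% higher and 2.21% lower over all tested genes). Cblb, a ubiquitin ligase that dampens the receptor, fell by 1.03 (SE 0.26, edgeR adjusted p = 0.00932). It lost the call with DESeq2 (-0.90), counted once (-0.71) and without Ago2 IP library 2 (-0.88). The median difference of the 15 genes was -0.10. Cd8a, the other coreceptor, had 1584, 1877 and 1022 rpm against 2376, 1952 and 1897, a difference of 0.43 (SE 0.19, edgeR adjusted p = 0.204). Lck, the kinase bound to the coreceptors, had 288, 289 and 292 rpm against 285, 195 and 154, which do not overlap but did not pass the test (-0.42, SE 0.38, edgeR adjusted p = 0.636).

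Of 16 thymocyte transcription factors, 14 were reproducible after enrichment and 11 in the Ago2 IP. Of 12 tested, 0 were higher and 3 lower, Satb1, Lef1 and Ets1 (2.21% lower over all tested genes), and the median difference was -0.36. Counted once, 1 of the 12 was called lower. Ets1 had 1786, 1780.4 and 1096 rpm against 966, 971 and 816 and fell by 0.82 (SE 0.19, edgeR adjusted p = 0.00382). Lef1 had 2016, 1684 and 2118 rpm against 1371, 1303 and 1188 and fell by 0.58 (SE 0.18, edgeR adjusted p = 0.0347). DESeq2 called neither of these, Lef1 was not called counted once (-0.39, edgeR adjusted p = 0.275), the Ets1 call was lost without Ago2 IP library 1 or 2 and the Lef1 call without any 1 Ago2 IP library or enriched library 2. Runx1, a partner of the T-lineage programme, had 1556, 1732 and 1753 rpm against 1543, 1602 and 1655, a difference of -0.05.

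Of 13 Notch pathway genes 5 were tested, and Tle5 alone was called, lower (2.21% lower over all tested genes), with a median of -0.80. Notch1 itself, the receptor that drives T-lineage entry, had 230.4, 96.2 and 219 rpm against 537, 340.4 and 295 (1.08, SE 0.40, edgeR adjusted p = 0.113). Of 6 antiproliferative genes 3 were tested and 0 called (median -0.27), against 6.03% called over all tested genes. With repeats counted once, 2 were lower, Btg2 and Cdkn1b (1.23% lower over all genes tested in that way). Of 10 PI3K pathway genes 6 were tested and 1 was called, higher (3.82% higher over all tested genes). This was Pik3r1, the regulatory subunit, with 2045, 2695 and 3141 rpm against 4596, 4353 and 3977 (log2 difference 0.76, SE 0.17, edgeR adjusted p = 0.00217), although it was -0.19 without repeats and lost the call without Ago2 IP library 1.

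Among 88 ribosomal protein genes, 80 had reads, 29 were reproducible after enrichment and 2 in the Ago2 IP. Of the 8 tested, 4 were higher and 0 lower, Rpl21, Rpl13a, Rps12 and Rpl13 (3.82% higher over all tested genes), and the median difference was 1.75. Counted once, 1 of the 8 was called higher, the median was 0.62 and Rpl21 turned (above). Rpl13a had 86.4, 96.2 and 219 rpm, from 3, 2 and 3 reads, against 838, 912 and 792 (log2 difference 2.86, SE 0.36, edgeR adjusted p = 1.02e-07), with 93.0% of its enriched reads at snoRNA spans. Rps12 had 57.6, 96.2 and 0 rpm, from 2, 2 and 0 reads, against 273, 313 and 307, with 89.9% at snoRNA spans. Its call was lost when counted once and without Ago2 IP library 1. Rpl13, with 4 Ago2 IP reads in all, lost its call with DESeq2, with no filter, counted once and without Ago2 IP library 1 or 2. Low members pass the filter more easily when they are high in the enriched libraries, so the 8 tested do not stand for the list. The share of all 88 genes was 0.249% ± 0.0259 of target reads in the Ago2 IP and 0.767% ± 0.0190 after enrichment (SD, n = 3).

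Among 367 zinc-finger genes of the Zfp series, 67 were tested and 2 called higher, Zfp185 and Zfp809, a share near the 3.82% over all tested genes, with a median of -0.03. Zfp809, a silencer of retroviral DNA, had 547, 674 and 584 rpm against 1082, 1167 and 1123 (log2 difference 0.92, SE 0.23, edgeR adjusted p = 0.0071), and lost the call counted once (0.40) and without Ago2 IP library 1 (0.82). Of 37 genes of the mitochondrial genome, 8 were tested and mt-Rnr1 alone was called, higher (3.82% higher over all tested genes), with a median of 0.58.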

How the data were processed

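Chimeric reads of 12 miR-eCLIP libraries were used, sequenced as paired reads of 150 nt, per the labels' protocols. The deposited values are counts, unscaled and not pooled: every line of a file stands for a single chimeric read and gives its miRNA, strand and 1-nt position. The submitters' processing notes name the builds mm10 and GRCm38.p6 and the tools Bowtie2 2.4.5, STAR 2.7.10, SAMtools 1.11, UMI-tools 1.1.1 and bedtools 2.30.0, without their roles, so whether duplicates were removed is not given in the sources used here.

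Reads of miR-181a, b, c and d-5p were assigned to RefSeq gene spans (GRCm38.p6) on either strand. Where spans overlap, miRNA hairpins came first and protein-coding genes before other genes; reads that this left in several spans were not assigned. The table holds no exons, so exon, intron and UTR classes were not analysed here. Reads in the 6 Mir181 hairpins were set aside. The 13692 to 249540 target reads left per wild-type library were the library sizes, so that the floor of 3 reads was 219 to 12.0 rpm. Knockout libraries held 738 to 913 target reads in the Ago2 IP and 4809 to 13501 after enrichment. Intervals and floors cover counting error only.

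Counts were tested with edgeR 4.0.16 (quasi-likelihood F test without TMM factors, in R 4.3.3) on the 6 libraries after filterByExpr at min.count 10, checked on simulated data, with Benjamini-Hochberg adjustment over all tested genes. The SE is the fold change over the root of F. Exact permutation tests, two-sided, served for totals and shares (Python 3.11.15, scipy 1.17.1). Equal-depth numbers are hypergeometric expectations. DESeq2 1.42.0, TMM factors, no filter, other scalings, counting repeats once, a replicate block, clusters and leaving out libraries were alternatives. Counts on the gene strand alone, clusters counted once, equal depth counted once and reads at snoRNA spans left out were chosen after seeing the data.

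The members, the lists and the tests were chosen with earlier results of these data known. Named are, per direction, the 10 called genes of smallest p whose groups do not overlap and whose log2 fold change is 1 or more in size, the 10 highest of each group, the 10 with most enriched reads and none in the Ago2 IP, those reproducible in the Ago2 IP alone, and the lists; other names were chosen after their values were seen. Hes1 had no miR-181 read. Some members of the counted sets are not reported here by name.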

Additional observations from a re-analysis of the deposited data

How the results depend on the processing

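The 131 calls among 2172 genes became 2024 of 2260 when scaled to all chimeric reads, 80 of 2172 with DESeq2 and 35 of 2116 with repeats counted once. They became 217 of 849 with clusters and 80 of 1706 on the gene strand alone. With 1 library left out they ranged from 64 of 3605 to 152 of 898, since the filter then passed different genes. With the sample number as a replicate block 153 were called, 94 higher and 59 lower. The labels do not say whether equal numbers pair the libraries. Deviations of libraries with the same number correlated by 0.08, -0.03 and -0.01, and those with different numbers by -0.0617 to 0.0672. Most genes have few Ago2 IP reads, so these values cannot tell whether the libraries are paired. The 4484 genes reproducible after enrichment alone became 2730 with at least 10 reads per library, 189.7 at equal depth, 212 at equal depth counted once, and 3880 to 5326 when 1 library was left out. The rho of 0.749 became 0.802 counted once, 0.331 with clusters, and 0.703 to 0.757 when 1 library was left out. With repeats counted once, the difference in hairpin share turned to -0.0437 and that in miR-181c-5p to 0.0117. So did Rpl21 (-0.63), Idh3g (-0.0686), Hspa8 (-0.44), Cd4 (-0.62) and Pik3r1 (-0.19); the cause was not tested.

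Scaled to all chimeric reads, which include the other miRNAs of the Ago2 IP, these log2 differences turned positive: Golt1b 0.26, Tle5 0.43, Eif4e2 0.18, Nfkbia 0.12, Znrf3 0.30, Pcnx 0.47, Ppp1r16b 0.43, Btg2 1.34, Themis 1.35, Satb1 0.98, Ptprc 0.78, Arhgap15 0.94, Glcci1 1.43, Bcl11b 1.51, Cblb 0.49, Lef1 0.94, Ets1 0.71, Bcl2 1.46, Cd69 1.40, S1pr1 1.22, Nlk 0.76, Tgfbr1 1.097, Cdkn1b 1.08 and Cd8b1 1.47. Over 55 named genes and all settings, 678 of 812 values kept direction and call, 57 lost the call, 15 gained it and 62 reversed.

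Of the reversed values, 33 were of genes called in neither setting, most of them near 0. Counted once they were Mbnl1 -0.24, Dusp5 -0.23, Bcl2 0.10 and Cd69 0.0823. With TMM factors they were Glcci1 0.0739, Bcl11b 0.14, Bcl2 0.0798, Cd69 0.0326 and Cd8b1 0.10, and with DESeq2 Glcci1 0.0179, Bcl11b 0.12, Bcl2 0.0993, Cd69 0.0373 and Cd8b1 0.0929. With miR-181a-5p alone they were Bcl11b 0.0145, Dusp5 -0.12 and Cd69 0.25. The rest were Bcl11b 0.0315 on the gene strand and 0.00705 without snoRNA spans, Ptpn22 0.58 scaled to all chimeric reads and Cd8b1 0.0087 with the replicate block. Leaving out 1 library gave ranges across 0 for Cd4 (-0.14 to 0.28), Glcci1 (-0.35 to 0.19), Bcl11b (-0.0573 to 0.0836), Dusp5 (-0.10 to 0.25), Bcl2 (-0.27 to 0.52), Cd69 (-0.21 to 0.0983), S1pr1 (-0.46 to 0.027) and Cd8b1 (-0.24 to 0.15). The Ago2 IP libraries limit the comparison, since 3 reads in the smallest equal 219 rpm.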

Other observations

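Genes differed in which family member was read on them. Over the 2172 tested genes, the median share of miR-181b-5p among enriched reads was 15.9%, with a lower decile of 8.29% and an upper decile of 28.8%. Of 577 genes with at least 200 enriched reads, 6 had more than 50% miR-181b-5p: Cd4, Fkbp1a, Emsy, mitochondrial COX1, Fmn1 and Gm36876. For Cd4 the share was 54.4% after enrichment and 69.0% of 371 reads in the Ago2 IP, and for Fkbp1a, the target of the immunosuppressant tacrolimus, 58.5% and 62.5% of 48 reads. The other 4 were not above 50% in the Ago2 IP: Fmn1 had 59.9% and 50% of 4 reads, Emsy had 57.1% and 44.4% of 36 reads, COX1 56.4% and 26.7% of 15 reads, and Gm36876 51.1% and 0 of 2 reads. At the other end, Prr16 and Cth had 0 and Zfp185 0.107%. In the Ago2 IP the 3 libraries held few or no reads of these (0 for Prr16, 3 for Cth and 43 for Zfp185, none of them miR-181b-5p).

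Reads of other miRNAs that remained after enrichment resembled those of the Ago2 IP in their leading member. Of reads that did not name miR-181, miR-142a-3p made up 40.04% ± 0.502 in the Ago2 IP, from 64149 reads, and 39.4% ± 1.69 after enrichment, from 3053 reads (SD, n = 3, exact permutation p = 0.6).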
